A study of Mus musculus with 12 samples.

Results

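The 3′ flank of the mouse α-globin domain was described here as 204 DpnII restriction fragments of chromosome 11 whose midpoints lie between 32204782 and 32299952 on the mm9 build, just past the last of the globin genes. They were chosen by position alone, out of 120011 fragments listed for chromosome 11 and 508938 listed on all chromosomes. The stretch covers 95.171 kb, and its fragments are 16 to 3014 bases long with a median of 326.5. Of the 204 fragments, 196 were listed for all 7 viewpoints, and 51 had at least 1 interaction in every library of every viewpoint.

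The study grew erythroid cells in embryoid bodies from mouse embryonic stem cells, selected them on magnetic columns with an antibody to CD71, the transferrin receptor, and mapped chromatin contacts by NG Capture-C at day 7. In this method chromatin is cross-linked, cut with DpnII and ligated, and the ligation products of chosen fragments, the viewpoints, are enriched with oligonucleotides and sequenced. The wild-type (WT) group was the E14TG2a.IV line of the 129/Ola strain. The D3839 group was the same line in which a homozygous edit had replaced the CTCF consensus at HS-38 and at HS-39.5, the boundary elements on the opposite, 5′ side of the domain, with ScaI sites. Each genotype had 3 libraries in each of 2 captures. One capture held the enhancer viewpoints R1 and R2, and the other the promoters of Il9r, Snrnp25, Rhbdf1, Mpg and Nprl3. The study describes separate differentiations and 2 independently derived D3839 clones, so at least 2 of the 3 D3839 libraries would share a clone, but the labels do not tie a library to a clone, and differences between clones and between libraries cannot be told apart. Library names match across the captures, so the 7 viewpoints probably come from 6 shared chromatin preparations and were not treated as independent. Libraries contain many cells, so fewer cells with a contact and fewer contacts in each cell cannot be told apart. The data hold no expression values, so the cell type was not checked here.

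The α-globin genes are switched on in erythroid cells by a group of enhancers, of which R1 and R2 lie in introns of Nprl3. CTCF binds DNA in a directional way and halts the cohesin complex as it extrudes chromatin loops, so clusters of CTCF sites mark the sides of the domain in which the enhancers and globin promoters meet. On the 5′ side lie genes with other roles. Il9r encodes the interleukin-9 receptor, Snrnp25 a protein of the minor spliceosome, Rhbdf1 a catalytically inactive rhomboid protein, Mpg a DNA repair glycosylase and Nprl3 a subunit of a complex that restrains mTOR signalling. On the 3′ side, the gene order in the GRCm38.p6 annotation after the last globin gene, Hbq1a, is the long non-coding RNA Gm46275, then Sh3pxd2b, an adaptor protein of podosomes, and Ubtd2. Genes were not placed on the flank fragments, since the annotation and the count tables use different builds.

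The edit replaced the CTCF consensus sites below, shown because the opposite side of the domain is described after this edit. The supplementary methods add that PAM sequences, which Cas9 needs for cutting, were changed where needed, so other bases may differ too. The capitals mark the bases that were replaced by the ScaI site AGTACT.
HS-38: TACCCTCTGGTGGC
HS-39.5: CTGGCCACTGGGGG

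The values are interactions with a viewpoint as a percentage of all its interactions on chromosome 11 in the same library. Chromosome 11 totals ran from 4999 to 64989 counts in WT libraries and from 12042 to 69758 in D3839 libraries, and the flank held 281 to 2133 counts in WT and 510 to 4581 in D3839. The 95% Wilson interval of a single library's flank share was 0.253 to 1.48 percentage points wide in WT and 0.259 to 0.981 in D3839, which covers counting error only. The D3839 libraries held more of their interactions on chromosome 11 at every viewpoint, for example 71.5% ± 3.04 against 51.0% ± 1.28 at Nprl3 and 76.5% ± 2.10 against 66.4% ± 1.81 at R1 (SD, n = 3 per genotype). D3839 library 1 stood apart from libraries 2 and 3 in the promoter capture and, in the outer flank, in the enhancer capture, so results that changed most without it are given both ways. With 3 libraries against 3 the exact permutation test cannot go below p = 0.1.

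In WT cells contacts did not stop at the start of the flank. At R1, R2 and Nprl3 the fall came inside the domain, between the next-to-last and the last 5 kb bin before the flank, where the mean share went from 2.97% to 1.14% at R1, from 2.13% to 0.644% at R2 and from 2.29% to 0.864% at Nprl3. At the more distant promoters the first bin of the flank was above the bin before it, and at all viewpoints the mean share per kb was lower from 25 to 50 kb than over the first 25 kb, for example 0.0770% against 0.187% at Il9r and 0.0269% against 0.136% at R1. The bin past 25 kb was above the bin before it in all 6 Il9r libraries, but it holds 12 fragments against 6, and per fragment the Il9r WT mean went from 0.0698% to 0.0505%. At R1 the last 5 kb before the flank held 1.14% of interactions, the first 5 kb of the flank 1.04%, the next 5 kb 0.436% and the following 5 kb 1.16% (means of 3 WT libraries). At the Il9r promoter the same bins held 0.645%, 1.34%, 0.777% and 1.36%, so the flank's first bin was above the last bin of the domain. At the Nprl3 promoter, the viewpoint nearest to the flank at 36.1 kb, they held 0.864%, 0.710%, 0.323% and 0.651%. Of the 42 profiles of a library and a viewpoint, 19 stepped down between the last bin before the flank and its first bin, with log2 steps from -0.80 to 1.18. Every library stepped down at Nprl3 and at R1, and every library stepped up at Il9r and Snrnp25. These steps are per bin. The first bin of the flank holds 18 fragments and the whole 50 kb before the flank 116, and the step per fragment was not computed. The domain just before the flank holds near-identical copies of the α-globin genes, where the placement of reads is uncertain, which touches every ratio of the flank to that stretch.

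The dip in the second 5 kb bin of the flank was seen from all viewpoints. The second 5 kb bin was below the first in all 42 profiles, by 0.36 to 1.46 on the log2 scale. That bin holds 10 fragments against 18 in the bins on either side, and per fragment the dip was smaller or absent. At R1 the WT means were 0.0436% of interactions per fragment against 0.0577% and 0.0646%, while at Il9r the second bin was the highest of the 3, at 0.0777% against 0.0745% and 0.0756%. The steepest fall between neighbouring bins came at 65 kb in 30 of the 42 profiles and at the start of the flank in 0. The bin past 65 kb holds 3 fragments, against 12 and 6 in its neighbours. Per fragment the WT mean at Il9r was 0.0200%, 0.0174% and 0.0111% across these 3 bins, and at R1 it was 0.0051%, 0.0059% and 0.0060%, so per fragment the step was small at Il9r and absent at R1. The first 50% of the flank's interactions lay within 12.5 to 21.0 kb of its start in every profile, and 90% within 42.5 to 66.7 kb.

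**Figure D1:**
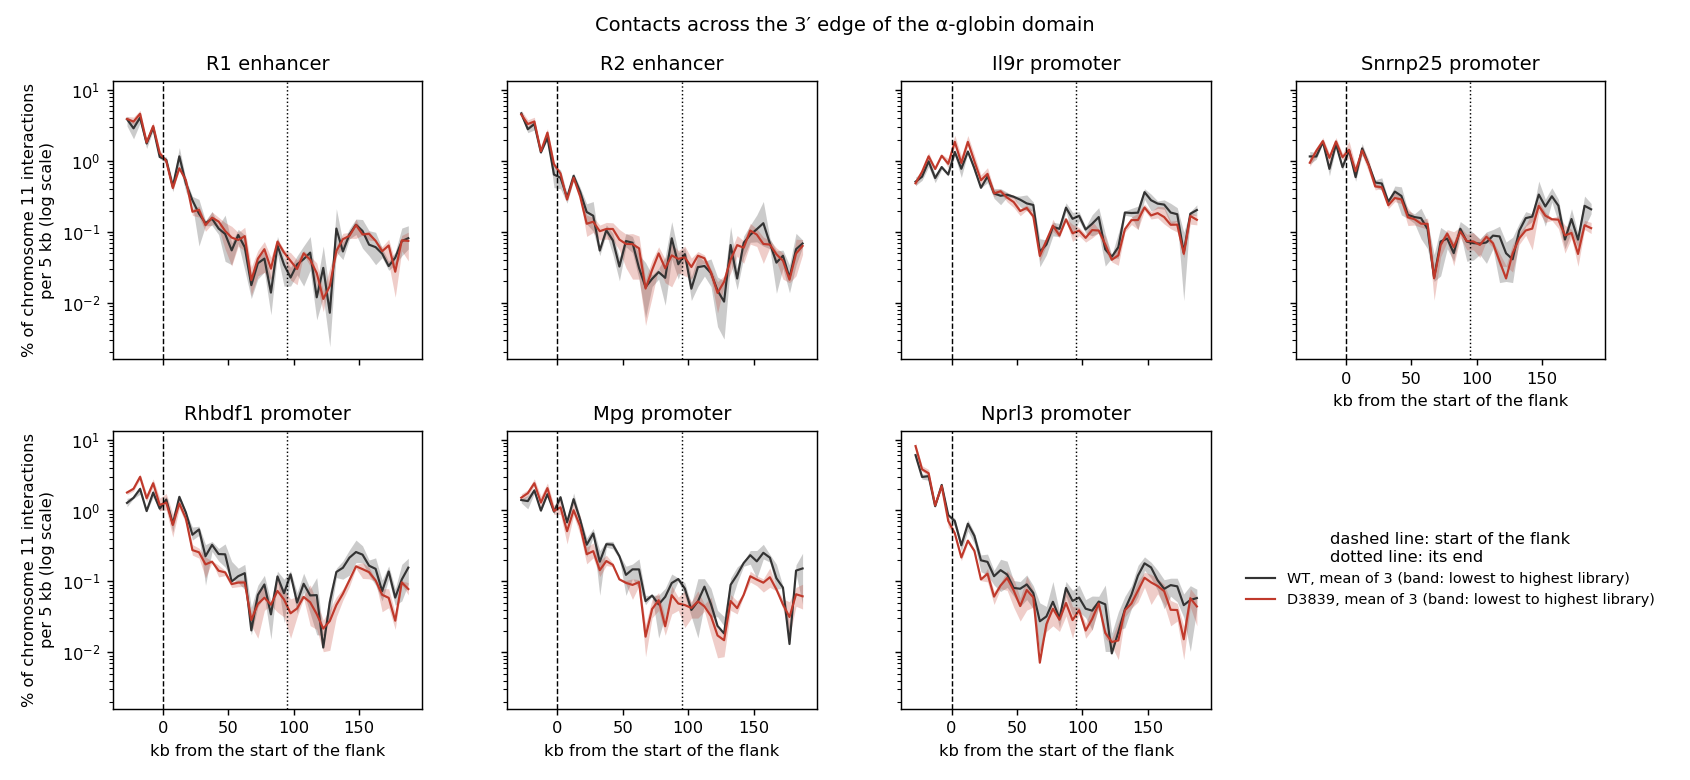
Percentage of chromosome 11 interactions per 5 kb bin (log axis) against the distance in kb from the start of the flank, by genotype in 1 panel per viewpoint. Contacts continue past the dashed line at the start of the flank, dip in the second bin and are lower on average from 25 to 50 kb than over the first 25 kb.

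The 5 fragments with the highest mean over the WT viewpoints all lay 13.7 to 21.0 kb past the start. They were chr11:32218130-32218753, chr11:32218902-32219377, chr11:32219591-32219919, chr11:32222955-32223357 and chr11:32224325-32227296. None of them was called higher or lower at more than 1 viewpoint.

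The share of the whole flank was lower in D3839 at some viewpoints only. At the 3 promoters closest to the globin genes every D3839 library was below every WT library, whereas the enhancers and the 2 most distant promoters overlapped. At Nprl3 the WT libraries held 3.96%, 3.63% and 2.89% of their chromosome 11 interactions in the flank, and the D3839 libraries 2.01%, 2.39% and 2.41%. The groups were separate, with a log2 difference of means of -0.62 (exact permutation p = 0.1, Benjamini-Hochberg 0.233 over 7 viewpoints). At Mpg the WT libraries held 7.13%, 7.10% and 7.17%, and the D3839 libraries 6.29%, 4.21% and 4.15%. The WT libraries were almost equal, and D3839 library 1 lay between them and the other two, with a log2 difference of -0.55 (exact permutation p = 0.1). At Rhbdf1 the WT libraries held 7.28%, 7.53% and 7.20% and the D3839 libraries 6.86%, 4.96% and 5.31%, a log2 difference of -0.36 (exact permutation p = 0.1). Without D3839 library 1 the differences were -0.54 at Nprl3, -0.77 at Mpg and -0.52 at Rhbdf1.

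At the enhancers the flank shares of the genotypes differed by less than the spread of the libraries. R1 had 4.63%, 4.82% and 4.01% in WT and 3.99%, 4.23% and 4.34% in D3839, a log2 difference of -0.10 (exact permutation p = 0.3). R2 had 2.64%, 3.23% and 2.78% against 2.53%, 3.14% and 3.11%, a difference of 0.02 (exact permutation p = 1). The groups overlapped at both enhancers. At Snrnp25 the means were 7.35% and 7.11% (log2 difference -0.05, exact permutation p = 0.7). At Il9r the WT libraries held 7.65%, 8.71% and 7.96% and the D3839 libraries 11.2%, 8.43% and 8.30%, so the higher D3839 mean of 9.30% ± 1.62 against 8.11% ± 0.545 came from library 1 (log2 difference 0.20, and 0.05 without it). The enhancers' mean log2 difference minus that of the promoters was 0.25 (exact permutation p = 0.4) and 0.41 without D3839 library 1, so a difference between enhancers and promoters was not detected with these libraries.

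**Figure D2:**
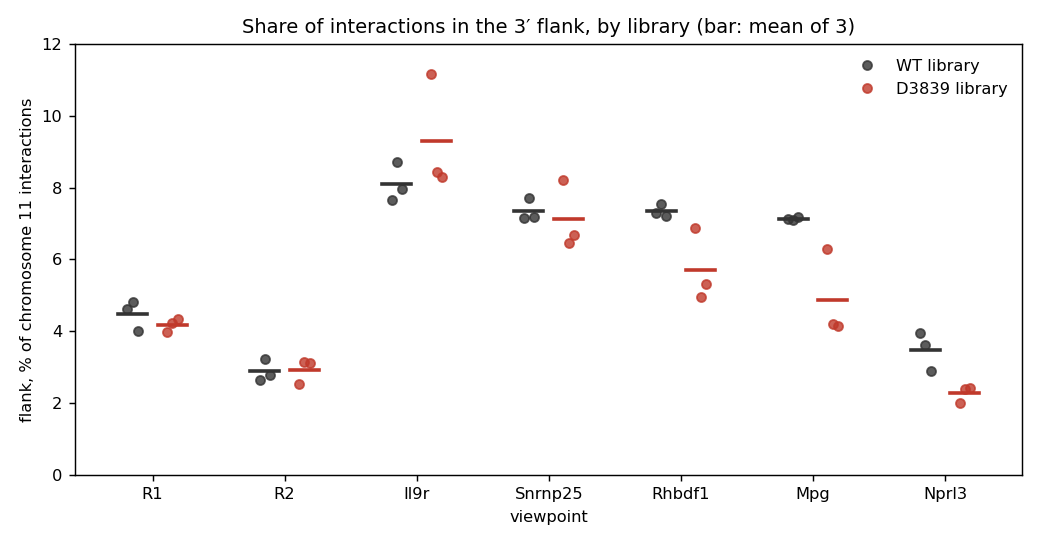
Percentage of chromosome 11 interactions that fell in the flank, with 1 point per library and a bar at the mean of 3, for each viewpoint by genotype. The D3839 points lie below the WT points at Rhbdf1, Mpg and Nprl3 and overlap them or straddle them elsewhere.

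These shares depended on the total they were divided by. With interactions on all chromosomes as the total, the log2 difference was -0.01 at Rhbdf1, -0.14 at Mpg and -0.13 at Nprl3, with overlapping groups, while Il9r stood at 0.63 and Snrnp25 at 0.18, both with the D3839 libraries above all those of WT. With interactions within 1 Mb of the viewpoint as the total, the differences were -0.54, -0.69 and -0.80 at Rhbdf1, Mpg and Nprl3, again separate. With interactions over 30 kb from the viewpoint as the total they were -0.10, -0.22 and -0.18, separate only at Nprl3 among the 3. The larger share of interactions that D3839 libraries kept on chromosome 11 moved with this result, and its part was not tested.

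A quasi-likelihood test in edgeR over windows of the flank's length, tiled along chromosome 11, called the flank lower in D3839 at Mpg only (log2 fold change -0.55, SE 0.130, adjusted p = 0.0166). Windows called lower made up 3.99% of those tested at Mpg, 1.23% at Il9r, 0.639% at Snrnp25, 1.78% at Rhbdf1 and 0.558% at Nprl3. At Nprl3 the fold change was -0.62 (SE 0.176, edgeR adjusted p = 0.0520) and at Rhbdf1 -0.36 (SE 0.113, edgeR adjusted p = 0.0822). The median over all windows tested was -0.05 at Mpg, -0.39 at Nprl3 and -0.36 at Rhbdf1. The flank of Rhbdf1 stood at that median and those of Mpg and Nprl3 below it. Only windows with at least 20 counts over the 6 libraries enter it. Over 5 kb bins tested the median was -0.60 at Mpg, -0.60 at Nprl3 and -0.52 at Rhbdf1, so this standing depends on the unit compared. At R1 and R2 the flank stood at -0.10 and 0.02 against medians of 0.26 and 0.25, and at Il9r at 0.20 against -0.20 (edgeR adjusted p = 0.783, 0.970 and 0.436). Windows in which every D3839 library was below every WT library were also common across the chromosome, at 16.8% for Mpg, 17.3% for Nprl3, 19.4% for Rhbdf1, 14.6% for Il9r and 18.2% for Snrnp25. At Rhbdf1 the flank was called without D3839 library 1 (edgeR adjusted p = 5.69e-12), and at Nprl3 without WT library 3 (edgeR adjusted p = 0.00428). The Mpg call was lost when any 1 library other than D3839 library 1 was left out (edgeR adjusted p from 0.0789 to 0.274), and the fold change was -0.13 with TMM factors and -0.03 with DESeq2.

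The neighbouring windows moved apart from one another. The window before the flank, which holds the globin genes but also the R1, R2, Nprl3, Mpg and Rhbdf1 viewpoints, rose in D3839 at Rhbdf1 (log2 fold change 0.62, edgeR adjusted p = 7.22e-07) and at Mpg (0.63, edgeR adjusted p = 4.48e-06). At Nprl3 it stood at 0.42 (edgeR adjusted p = 0.0607). Contacts close to these viewpoints are part of the value, so it is not a measure of the globin genes alone. The window after the flank fell at Il9r (-0.48, edgeR adjusted p = 0.0430), Snrnp25 (-0.57, edgeR adjusted p = 0.0138), Rhbdf1 (-0.77, edgeR adjusted p = 0.00817) and Mpg (-0.92, edgeR adjusted p = 0.00150), and stood at -0.56 at Nprl3 (edgeR adjusted p = 0.154). These 4 calls depended on the chromosome 11 total: with TMM factors, with DESeq2 and with all interactions as library size 0 windows anywhere on the chromosome were called lower at these promoters, and with D3839 libraries 2 and 3 as 1 library 0 were at Il9r and Snrnp25. As shares of chromosome 11, the flank of Rhbdf1 and Mpg lay between a stretch that was higher and a stretch that was lower in D3839. Neither window was called at the enhancers, where the fold changes were 0.07 and 0.02 before and 0.03 and -0.04 after the flank for R1 and R2.

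Ratios taken within each library do not depend on the total, and they were lower in D3839 for the same 3 promoters. The stretch before the flank is part of them. As a share, its last 25 kb was higher in D3839 by 0.46 at Rhbdf1 and 0.30 at Mpg (log2, separate groups). At Nprl3 that difference was 0.13 with overlapping groups. A lower ratio thus does not by itself show fewer contacts past the edge. The edge step is the log2 ratio of the first 10 kb of the flank to the last 10 kb before it. At Mpg it was -0.30, -0.19 and -0.30 in the WT libraries and -0.69, -0.96 and -1.22 in the D3839 libraries. The groups did not overlap, and the means differed by -0.69 (SE 0.157, exact permutation p = 0.1). At Rhbdf1 it was -0.52, -0.40 and -0.47 in WT and -0.70, -1.18 and -0.98 in D3839, a difference of -0.49 (SE 0.141, exact permutation p = 0.1). At Nprl3 it was -1.45, -1.49 and -1.92 in WT and from -2.24 to -1.96 in D3839, a difference of -0.45 (SE 0.172, exact permutation p = 0.1). The Nprl3 groups were set apart by a narrow gap. Benjamini-Hochberg values were 0.233 for all 3. With 1 library left out the differences ran from -0.83 to -0.56 at Mpg, from -0.61 to -0.38 at Rhbdf1 and from -0.59 to -0.36 at Nprl3.

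At the other viewpoints the steps overlapped between genotypes. The means went from -1.48 in WT to -1.64 in D3839 at R1, from -1.66 to -1.84 at R2, from 0.52 to 0.40 at Il9r and from -0.34 to -0.51 at Snrnp25 (exact permutation p from 0.4 to 0.5). Where the edge was set mattered for the size. With the edge 5 kb further out the differences were -0.23 at Mpg and -0.29 at Nprl3, with overlapping groups, and with 5 kb on each side Nprl3 stood at -0.27.

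Set against the 50 kb before it, the whole flank was lower in D3839 at the same 3 promoters. The log2 ratio of flank to that stretch went from -0.66 in WT to -1.48 in D3839 at Mpg, from -0.63 to -1.46 at Rhbdf1 and from -3.29 to -4.39 at Nprl3. Every D3839 library was below every WT library at these 3 promoters (exact permutation p = 0.1, the smallest possible). The differences were -0.82, -0.83 and -1.10, and with 1 library left out they ran from -0.93 to -0.76 at Mpg, from -0.91 to -0.76 at Rhbdf1 and from -1.32 to -0.93 at Nprl3. The other ratios overlapped, at -2.78 and -2.87 for R1, -3.75 and -3.75 for R2, 0.61 and 0.55 for Il9r, and -0.45 and -0.55 for Snrnp25 (WT and D3839). The rise before the flank at Rhbdf1 and Mpg is part of this ratio, so a lower ratio does not by itself show a loss of flank contacts.

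**Figure D3:**
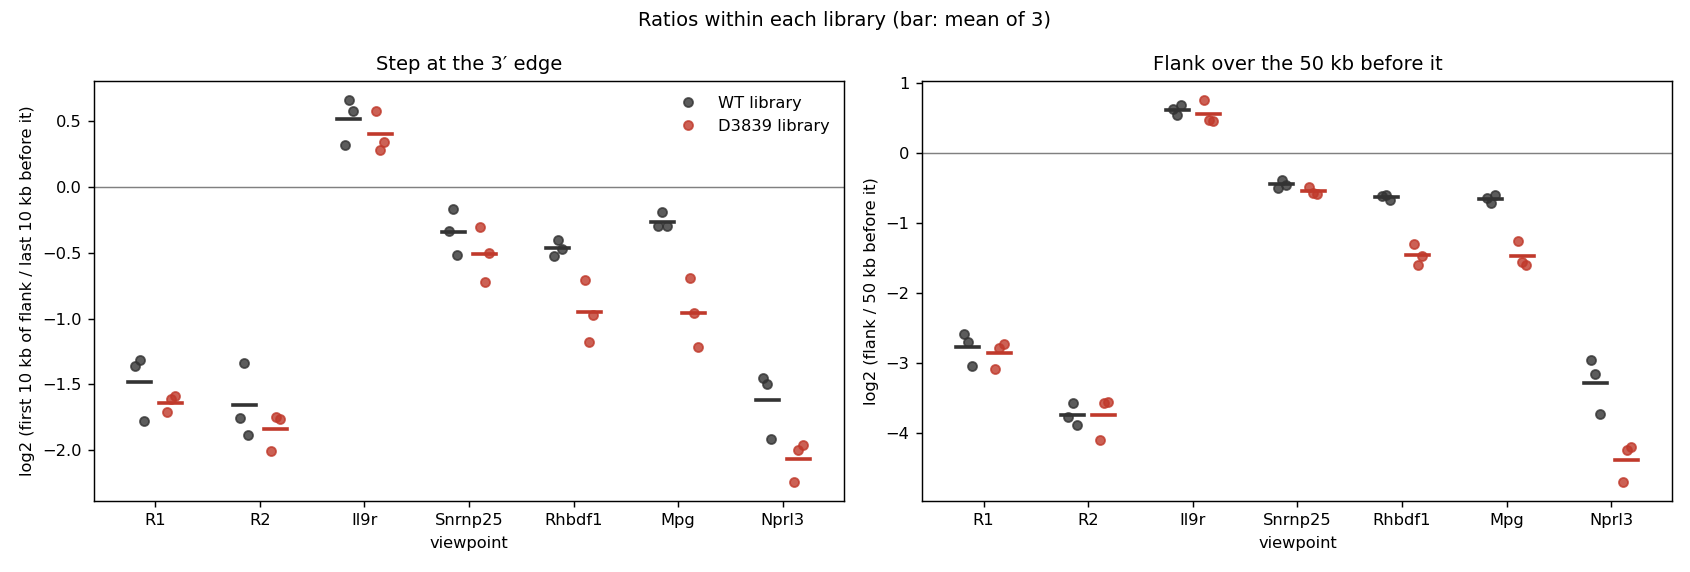
Log2 ratio of the first 10 kb of the flank to the last 10 kb before it (left) and of the flank to the 50 kb before it (right), with 1 point per library and a bar at the mean of 3. In both panels the D3839 points of Rhbdf1, Mpg and Nprl3 lie below the WT points.

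A mirror stretch, equally far from each viewpoint but towards the 5′ side, gave a second reference. At the enhancers the flank was higher relative to it in D3839. The log2 ratio of flank to mirror stretch was higher by 0.81 at R1 and by 0.54 at R2 (exact permutation p = 0.1 each, Benjamini-Hochberg 0.175), with separate groups. The flank shares overlapped while the mirror shares did not. At R1 the mirror held 3.07%, 2.88% and 2.93% of interactions in WT and 1.64%, 1.59% and 1.51% in D3839, and at R2 the means were 2.36% and 1.64%, again with separate groups. At Il9r the ratio differed by 0.49 and at Nprl3 by -0.35 on the log2 scale, also separate, but without D3839 library 1 by only 0.16 and -0.20. Snrnp25, Rhbdf1 and Mpg overlapped, with differences of -0.11, -0.06 and -0.10, and without D3839 library 1 the differences were -0.52, -0.46 and -0.53, since that library was above all WT libraries and the remaining D3839 libraries were below them. The mirror stretch of Nprl3 contains other promoter viewpoints, so its ratio has a different base from that of the enhancers.

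Along the flank, the stretches in which the libraries of the genotypes were separate were not the same at each viewpoint. At Nprl3 this was the first 25 kb, where the WT libraries held 2.46%, 2.55% and 1.95% and the D3839 libraries 1.44%, 1.45% and 1.45% (log2 difference -0.68). From 25 to 50 kb and from 50 to 95 kb the Nprl3 differences were -0.50 and -0.51 with overlapping groups (-0.33 and -0.26 without D3839 library 1), so the mean was lower along the whole flank. Its first 25 kb made up 66.7% of the flank total in WT libraries against 64.2% for D3839 (exact permutation p = 0.6). At Rhbdf1 and Mpg the first 25 kb overlapped between genotypes, at -0.25 and -0.45 (-0.47 and -0.74 without D3839 library 1), and the stretch from 25 to 50 kb was separate. There Rhbdf1 had 1.74%, 1.69% and 1.31% in WT and 0.935%, 0.881% and 0.873% in D3839, and Mpg had 1.64%, 1.40% and 1.63% against 1.05%, 0.769% and 0.824%. Both gave a log2 difference of -0.82 with separate groups. From 50 to 95 kb Mpg stood at -0.67 and Il9r at -0.37, both separate. Over the first 25 kb Il9r was higher in D3839, with 4.16%, 5.09% and 4.79% in WT and 7.63%, 5.45% and 5.48% in D3839 (log2 difference 0.40, separate, exact permutation p = 0.1, and 0.22 without D3839 library 1). The first 25 kb made up 66.3% of Il9r flank interactions in D3839 against 57.7% in WT (exact permutation p = 0.1, Benjamini-Hochberg 0.7), and this share overlapped between genotypes at the other viewpoints. At the enhancers D3839 library 1 was the lowest library beyond 50 kb. From 50 to 95 kb R2 held 0.435%, 0.326% and 0.379% in WT and 0.185%, 0.526% and 0.511% in D3839, a log2 difference of 0.10 with overlapping groups, and 0.45 without library 1. At R1 the difference there was 0.33, and 0.54 without it. Differences in position between viewpoints were not tested.

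In 5 kb bins, 19 of which cover the flank, edgeR called 10 bins lower and 2 higher over the 7 viewpoints, in 8 different bins. At Mpg 4 bins fell, where 11.7% of all bins tested on the chromosome were called lower. At Rhbdf1 3 bins fell, against a background of 9.24%, and at Nprl3 3 bins fell, against 3.77%. Il9r had 2 bins called higher, against 1.64%, and 0 called lower, against 0.596%. No flank bin was called lower at R1 (0% of all bins), R2 (0.106%) or Snrnp25 (2.59%). At an unadjusted p under 0.05, edgeR had 2 flank bins lower at R1, 0 at R2, 0 at Snrnp25, 4 at Il9r, 6 at Rhbdf1, 9 at Mpg and 9 at Nprl3. It had 2 higher at R2, 5 at Il9r and 0 at the other viewpoints. The shares of all bins at that unadjusted p were not counted. DESeq2 called 0 lower at any viewpoint, with an adjusted p for only 4 of the 19 flank bins at Nprl3 and 12 at Mpg. The median flank bin stood at -0.59 at Mpg against -0.60 over all bins tested, and at -0.58 against -0.60 at Nprl3, so by bins the flank stood near the chromosome. Among the fragments tested the flank stood lower, with medians of -0.66 against -0.12 over all those tested at Mpg. The medians were -0.64 against -0.16 at Nprl3 and -0.43 against 0.10 at Rhbdf1. Only 514 fragments were tested at Mpg, 440 at Nprl3 and 453 at Rhbdf1, of the 120011 listed for chromosome 11. These medians therefore do not stand for the whole chromosome. The D3839 promoter libraries were also deeper, and how far the count minimum shaped this contrast was not tested. For bins at Rhbdf1 the medians were -0.35 and -0.52, at Il9r -0.03 and -0.32, and at R1 0.19 and -0.32.

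Only 2 bins were called lower at more than 1 viewpoint, both at Rhbdf1 and Mpg, and none at 3 or more. Over the chromosome 3.86% of the bins tested at both promoters were called lower at both. The first was chr11:32229782-32234781, 25 to 30 kb past the edge. At Rhbdf1 it held 0.574%, 0.445% and 0.600% of interactions in WT and 0.294%, 0.213% and 0.265% in D3839 (log2 fold change -1.08, edgeR adjusted p = 0.0003). At Mpg it held 0.436%, 0.429% and 0.559% against 0.347%, 0.214% and 0.239% (-0.84, edgeR adjusted p = 0.0214). The D3839 libraries were below the WT libraries at both promoters. The second was chr11:32239782-32244781, 35 to 40 kb past the edge. At Rhbdf1 it held 0.365%, 0.353% and 0.265% in WT and 0.194%, 0.188% and 0.187% in D3839 (-0.82, edgeR adjusted p = 0.0340). At Mpg it held 0.366%, 0.334% and 0.303% against 0.234%, 0.167% and 0.179% (-0.83, edgeR adjusted p = 0.0207). The groups were again apart at both. Mpg also fell at 40 to 45 kb (-0.97, edgeR adjusted p = 0.0077) and at 45 to 50 kb, where the shares were 0.234%, 0.238% and 0.208% in WT and 0.108%, 0.106% and 0.106% in D3839 (-1.09, edgeR adjusted p = 0.010), and Rhbdf1 at 20 to 25 kb (-0.70, edgeR adjusted p = 0.0378).

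Next to the edge the same bins went in opposite directions at Il9r and Nprl3. In the first bin Il9r held 1.18%, 1.45% and 1.40% in WT and 2.30%, 1.61% and 1.67% in D3839 (log2 fold change 0.49, edgeR adjusted p = 0.0088). Nprl3 held 0.759%, 0.776% and 0.596% against 0.492%, 0.448% and 0.493% (-0.58, edgeR adjusted p = 0.0313). The D3839 libraries were thus above the WT libraries at the most distant promoter and below them at the nearest. The bin at 10 to 15 kb showed this again, with 0.45 at Il9r (edgeR adjusted p = 0.0204) and -0.80 at Nprl3 (edgeR adjusted p = 0.0028). The D3839 mean of that bin was below WT at 6 of the 7 viewpoints. It stood at -0.55 at R1, -0.32 at Rhbdf1 and -0.51 at Mpg, where it was not called (edgeR adjusted p = 0.175, 0.155 and 0.0802). At R1 its groups were separate. Nprl3 also fell at 15 to 20 kb (-0.72, edgeR adjusted p = 0.0183). The 2 Il9r calls went to 0 without D3839 library 1, D3839 library 3 or WT library 1, and to 1 without WT library 2. With TMM factors or DESeq2's size factors, which scale to the typical bin, 0 bins were called lower and 5 higher, and with all interactions as library size 1 was lower and 7 higher, so the 10 lower calls depend on the chromosome 11 total. With D3839 libraries 2 and 3 as 1 library 4 bins were lower and 0 higher, as they were without a count filter. Leaving out D3839 library 1 raised the lower calls to 22. They numbered 1 without WT library 1, 5 and 6 without D3839 libraries 2 and 3, 6 without WT library 2 and 14 without WT library 3.

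**Figure D4:**
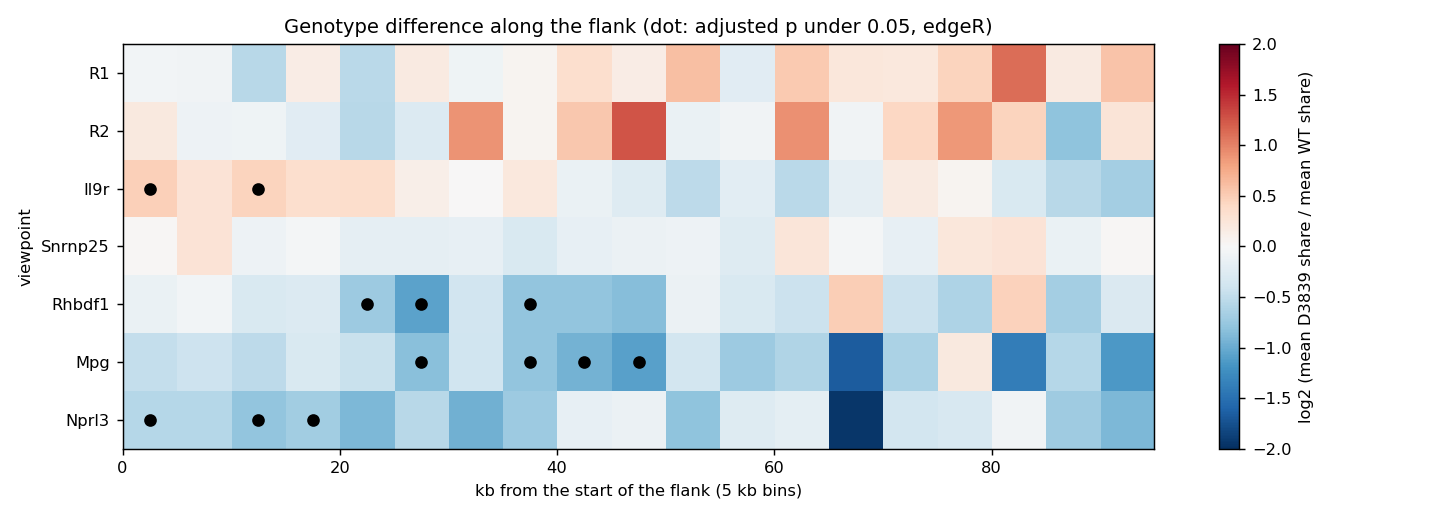
Log2 ratio of the mean D3839 share to the mean WT share in each 5 kb bin of the flank (horizontal axis, kb from its start) for each viewpoint, with a dot where the edgeR adjusted p was under 0.05. Dots for Rhbdf1 and Mpg coincide at 25 to 30 kb and 35 to 40 kb, and those of Il9r and Nprl3 near the edge have opposite colours.

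Single fragments gave fewer calls. A fragment was tested where it had at least 20 counts over the 6 libraries, which 175 of the 204 fragments did for at least 1 viewpoint and 63 for all 7. Since the D3839 promoter libraries were deeper, many fragments passed mainly through them. At Nprl3 5 fragments fell, where 4.55% of all fragments tested were lower and 9.55% higher. At Rhbdf1 4 fell, against 1.55% lower and 8.17% higher, and at Mpg 2 fell, against 1.36% and 8.37%. No flank fragment was called higher at any viewpoint, although 3.26% of fragments tested at Il9r and 6.25% at Snrnp25 were higher. At an unadjusted p under 0.05 edgeR had 24 flank fragments higher at Il9r, 7 at R1, 7 at R2, 2 at Snrnp25, 1 at Rhbdf1 and 0 at Mpg and Nprl3, and DESeq2 called 2 higher in all. In the whole chromosome 9.53% of fragments at Il9r, 5.35% at R1 and 3.68% at R2 were higher at that unadjusted p. The count of 0 depends on the setting: 35 flank fragments were called higher with all interactions as library size, 8 with TMM factors and 5 with at least 60 counts. The shares of all fragments called higher over the 7 viewpoints were then 11.3%, 4.52% and 12%, and 8.26% with DESeq2. None was called lower at R1 (background 0%), R2 (0%), Il9r (0.0814%) or Snrnp25 (0%), with 6, 5, 6 and 3 at an unadjusted p under 0.05. At that p Rhbdf1, Mpg and Nprl3 had 9, 15 and 16 lower, and the shares of all fragments lower at it were not counted. The edgeR dispersion of fragments was 0.203 at R1 and 0.3 at R2, above that of every promoter viewpoint, and its part in the calls was not tested.

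The 11 calls fell on 10 fragments, and 1 fragment was called at more than 1 viewpoint. The calls numbered 17 without D3839 library 1, 5 without D3839 library 2, 6 without WT library 1 and 4 without WT library 2. DESeq2 made 10. They were 5 of 77 flank fragments tested at Rhbdf1, where 9 of 400 on the chromosome were lower, and 1 of 90 at Mpg (4 of 514). At the enhancers they were 3 of 83 at R1 (44 of 564 on the chromosome) and 1 of 96 at R2 (56 of 787). DESeq2 gave no adjusted p for any flank fragment at Nprl3 or Snrnp25. The fragment that edgeR called at more than 1 viewpoint is chr11:32217255-32217330, a piece of 76 bases 12.5 kb past the edge. At Rhbdf1 it had 69.6, 184 and 88.3 interactions per 100000 on chromosome 11 in WT and 68.3, 10.7 and 27.2 in D3839 (log2 fold change -1.73, SE 0.50, edgeR adjusted p = 0.0151). At Nprl3 it had 31.1, 33.3 and 51.4 against 11.8, 9.79 and 6.97 (-1.97, SE 0.64, edgeR adjusted p = 0.0291). These rest on 3 to 13 reads per library, and at Rhbdf1 the highest D3839 library lay just below the lowest WT library. The Rhbdf1 call was lost without WT library 2 (edgeR adjusted p = 0.230), without D3839 library 2 (0.0888) and in the replicate block (0.114), and the Nprl3 call without WT library 2 (0.0858), without D3839 library 3 (0.0700) and with all interactions as library size (0.0748). Without a count filter neither was called. Of all fragments tested at 2 or more viewpoints, 0.215% were called lower at 2 or more. The mean of the 76-base fragment was lower in D3839 at all 7 viewpoints, with separate groups at R1, Snrnp25, Rhbdf1 and Nprl3. At R2 the lower mean rested on WT library 1, with 153, 10.8 and 27.7 in WT and 19.2, 18.6 and 24.4 in D3839. WT library 1 was also the highest at R1, with 207 against 47.5 and 62.6 in the other WT libraries. Counts summed over the 5 promoters gave 68.6, 80.2 and 83.5 per 100000 in WT and 53.5, 24.8 and 29.4 in D3839 (-1.14, SE 0.25, edgeR adjusted p = 0.00292, and 0.0518 without D3839 library 2). In those sums 3 of 197 flank fragments tested fell, where 1.81% of all fragments were lower. The others were chr11:32253778-32253971 (-1.28, edgeR adjusted p = 0.0255) and a fragment of 364 bases that starts at 32223575.

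**Figure D5:**
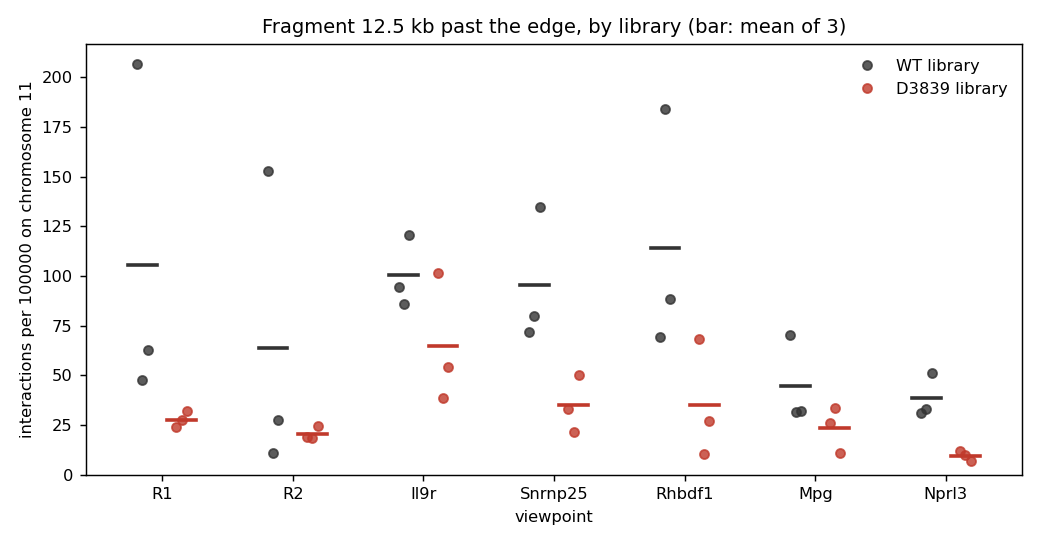
Interactions per 100000 on chromosome 11 at the fragment 12.5 kb past the edge, with 1 point per library and a bar at the mean of 3, for each viewpoint by genotype. The mean of D3839 is below that of WT at all 7 viewpoints, and the points are separate at R1, Snrnp25, Rhbdf1 and Nprl3. At R2 the WT mean is raised by WT library 1, at 153 against 10.8 and 27.7 in the other WT libraries.

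The other calls belonged to 1 viewpoint each. At Nprl3 they lay between 32219591 and 32223357, led by chr11:32219591-32219919, with 80.8, 66.5 and 51.4 per 100000 in WT and 11.8, 29.4 and 20.9 in D3839 (log2 fold change -1.63, SE 0.42, edgeR adjusted p = 0.00404). This fragment is also among the 5 most contacted, as is chr11:32222955-32223357 (-1.30, edgeR adjusted p = 0.0234). At Rhbdf1 they lay in the bin 25 to 30 kb past the edge that was also lower at Mpg, led by chr11:32232333-32232480, with 60.9, 92.0 and 70.6 per 100000 in WT and 15.8, 10.7 and 6.79 in D3839 (-2.70, SE 0.63, edgeR adjusted p = 0.00135). This one rests on 2 to 7 reads per library, and all its D3839 values were far below the WT values. At R1 the same fragment had 0, 1 and 1 reads in WT and 2, 11 and 13 in D3839, so it reached the 20-count minimum through D3839 alone, and it was not called (edgeR adjusted p = 0.122). At Mpg they were chr11:32209895-32210016 (-1.40, edgeR adjusted p = 0.0157) and chr11:32247997-32248848 (-1.74, edgeR adjusted p = 0.0463).

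Several of these fragments are short, and short fragments took a lower share of the flank in D3839 at some viewpoints. Fragments under 200 bases held 26.2% to 36.0% of the flank interactions of R1 in WT and 23.7% to 24.5% in D3839, 27.7% to 32.0% against 21.0% to 25.1% at Rhbdf1, and 25.1% to 30.5% against 22.8% to 23.9% at Mpg. The groups overlapped in the flank at R2, Il9r, Snrnp25 and Nprl3, for example 20.9% to 28.1% against 20.3% to 22.6% at Nprl3. Over all of chromosome 11 the short-fragment share was lower in every D3839 library at R1, R2, Il9r and Nprl3, and the groups overlapped at Snrnp25, at Rhbdf1 (21.5% to 25.5% against 21.1% to 22.1%) and at Mpg (22.3% to 25.7% against 21.9% to 23.7%). The part of fragment length in the single-fragment calls was not tested. With fragments of 200 bases or more alone, the flank share differed by -0.27 at Rhbdf1, -0.49 at Mpg and -0.64 at Nprl3, and the edge step by -0.34, -0.60 and -0.44, all with separate groups.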

How the data were processed

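Interactions of 7 viewpoints were analysed in 12 libraries. The deposited values are counts made by the authors: per the submitters' processing notes, reads were trimmed with Trim Galore and aligned with Bowtie to mm9 (versions not given in the sources used here), and interactions were counted per DpnII fragment. No molecular identifiers are described, so intervals cover counting error only. All value columns were mapped (0 unmapped).

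Flank members were set by a fixed interval of positions, and this interval and the lists were chosen with earlier results of these data known. Shares were counts over the chromosome 11 total of the library. The edge step used 10 kb on each side, the near part the first 25 kb, and the inside stretch 50 kb. Differences in these per-library values were tested with exact two-sided permutation tests, adjusted by Benjamini-Hochberg over 7 viewpoints. Windows of the flank's length, 5 kb bins and fragments with at least 20 counts over 6 libraries were tested with the quasi-likelihood test of edgeR 4.0.16 (R 4.3.3), with chromosome 11 counts as library size and adjustment over all units of a viewpoint at 0.05. The code was tested on simulated data. Where the labels do not state separate cultures, p-values measure only the spread between these libraries.

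Named bins were those in the first 15 kb or called at 3 or more viewpoints, and named fragments those called at 2 or more, with the 3 smallest p-values of a viewpoint or among the 5 highest WT means. The bins called at 2 viewpoints or elsewhere, and the fragment positions in the summed promoters, were named after their values were seen. Alternatives were DESeq2 1.42.0, TMM, other totals, filters, edges and bins, a replicate block, D3839 libraries 2 and 3 as 1 library (their names share a stem), and leaving out each library. A restriction to fragments of 200 bases or more, and leaving D3839 library 1 out of the stretches of the flank, were chosen after seeing the data. Python 3.11.15 with numpy 2.4.6, pandas 2.3.3, scipy 1.17.1 and matplotlib 3.10.9 was used.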

Additional observations from a re-analysis of the deposited data

How the results depend on the processing

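The shares changed most with the total. With all interactions as the total the log2 difference in flank share was 0.10 at R1, 0.63 at Il9r, 0.18 at Snrnp25 (reversed), -0.01 at Rhbdf1, -0.14 at Mpg and -0.13 at Nprl3, and over 30 kb from the viewpoint it was 0.40 at Il9r, -0.10 at Rhbdf1, -0.22 at Mpg and -0.18 at Nprl3. The edgeR windows then gave 0.63 at Il9r and -0.14 at Mpg, and Mpg stood at -0.13 with TMM and -0.03 with DESeq2. With all interactions as library size, flank bins were 7 higher at Il9r and in all, 1 lower at Rhbdf1 and in all, 0 at Mpg and 0 at Nprl3, and fragments were 0 lower at Mpg, 1 at Nprl3, 1 in the summed promoters and 5 in all, with 35 higher. With TMM, 5 bins were higher at Il9r and in all, 0 lower at Rhbdf1, Mpg, Nprl3 or in all, 8 fragments higher and 1 lower in the summed promoters. With DESeq2, 5 bins were higher at Il9r and in all, 0 lower at the same 3 promoters or in all, and fragments were 1 lower at Mpg and 1 in the summed promoters, with 2 higher in all and no adjusted p for Nprl3. The cause of these changes was not tested.

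Without a count filter, bins were 0 higher, 1 lower at Rhbdf1, 2 at Mpg, 1 at Nprl3 and 4 in all, and fragments 1 at Rhbdf1, 0 at Mpg, 0 at Nprl3, 1 in the summed promoters and 4 in all. With at least 60 counts, fewer units were tested: windows at Rhbdf1 (-0.36) and Nprl3 (-0.62) were called, bins were 5 lower at Nprl3 and 16 in all, and fragments 0 lower at Rhbdf1, 1 at Mpg, 1 at Nprl3, 7 in the summed promoters and 3 in all, with 5 higher. With D3839 libraries 2 and 3 as 1 library, bins were 0 higher, 1 lower at Rhbdf1, 2 at Mpg, 1 at Nprl3 and 4 in all, and 1 fragment was lower at Mpg. With 10 kb bins 0 were higher. With the edge 5 kb away the step was -0.45 at R1, -0.09 at Il9r, -0.23 at Mpg and -0.29 at Nprl3, and the ratio to the mirror stretch 0.44 at Il9r. With the edge 5 kb towards the viewpoint the share differed by -0.28 at Rhbdf1, the step by 0.23 at R2, the ratio to the inside by 0.05 at Snrnp25 and the near part by 0.14 at Rhbdf1. With 5 kb on each side the step was -0.47 at Snrnp25 and -0.27 at Nprl3, and with the first 10 kb the near part of R1 stood at 0.05.

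Same-numbered libraries of the genotypes did not deviate together (correlations from -0.19 to -0.05), so the numbers pair nothing. In the replicate block the near part of R1 stood at -0.11 with paired libraries moving one way, and 0 bins were higher at Il9r and in all, 1 bin and 1 fragment lower at Rhbdf1, the Mpg window -0.57. The block moved no other result across its threshold.

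Leaving out 1 library gave flank shares from -0.18 to -0.05 at R1, 0.05 to 0.27 at Il9r and -0.16 to 0.02 at Snrnp25, and an edge step from -0.30 to -0.07 at R1. The ratio to the inside ran from -0.23 to 0.02 at R1, -0.15 to -0.01 at Il9r and -0.13 to -0.07 at Snrnp25. The ratio to the mirror ran from 0.16 to 0.66 at Il9r, -0.43 to -0.20 at Nprl3, -0.52 to 0.10 at Snrnp25, -0.46 to 0.15 at Rhbdf1 and -0.53 to 0.13 at Mpg. The near part ran from -0.18 to -0.07 at R1, -0.17 to -0.02 at R2, 0.04 to 0.15 at Rhbdf1, 0.04 to 0.13 at Mpg and -0.14 to -0.01 at Nprl3, and enhancers against promoters from 0.16 to 0.41. Windows ran from -0.51 to -0.27 at Rhbdf1, -0.77 to -0.44 at Mpg, -0.74 to -0.52 at Nprl3 and -0.27 to -0.06 in the summed promoters. Bins lower ran from 1 to 7 at Rhbdf1, 0 to 9 at Mpg, 0 to 6 at Nprl3 and 1 to 22 in all, and bins higher from 0 to 2 at Il9r and in all. Fragments lower ran from 1 to 6 at Rhbdf1, 0 to 7 at Mpg, 1 to 6 at Nprl3, 0 to 7 in the summed promoters and 4 to 17 in all, and higher from 0 to 3.

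The depth of the WT promoter libraries, down to 4999 interactions, limits single fragments. With 3 libraries per genotype no exact test can pass 0.05.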
